A study of Mus musculus with 3 samples.

Results

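Among the barcodes of 3 lung lymphocyte libraries, 63 of 5164 met a rule for transcripts of myeloid cells, and they are described here. By its other genes, 1 of them was like type 2 epithelium. A barcode was kept if it had 500 genes or more and no more than 10% mitochondrial UMIs (unique molecular identifiers, each standing for 1 captured transcript). A kept barcode was a member when Lyz2, Chil3, S100a8 and S100a9 together held at least 15 UMIs and neither the T cell genes Cd3e and Cd3d nor the endothelial genes Cldn5 and Cdh5 held any. Members with more S100a8 and S100a9 than Lyz2 and Chil3 UMIs form the neutrophil class, with 28 cells. The other 35 are named the Lyz2 class, because the proposed name macrophage covered only some of them, as shown further on.

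The cells came from perfused lungs of mice carrying a GFP reporter of Gfi1b. After digestion by Dispase, collagenase and DNase, a Percoll gradient was run. Every group was then sorted for live cells that were CD45+, CD90.2+ and IL-7R+ and lacked lineage markers. The first group is the IL-18R+ pool, a mix of an IL-18R+ CD103+ GFP- and an IL-18R+ CD103- GFP+ sort whose barcodes are not mapped to either. The second is the library labelled IL-18R- CD103- GFP-. IL-18R- ST2+ cells form the last library. Each group is 1 library of 10x Chromium 3' v3.1 chemistry, so no difference has a replicate check, no test was possible, and an interval in parentheses is a 95% counting interval unless it is named as a range over cells. The sources used here do not give the number or age of the mice, or which antibodies made up the lineage gate.

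Neutrophils are short-lived phagocytes of the blood that enter tissue in response to chemokines and interleukin signals, and they store S100a8 and S100a9, the subunits of the calcium-binding protein calprotectin, in large amounts. Alveolar macrophages live in the air spaces, where they take up surfactant lipid, and depend on the growth factor GM-CSF. Interstitial macrophages and monocytes hold other places in the lung wall and its vessels. Lyz2 (lysozyme) is transcribed in all of these cells and in type 2 epithelium, whereas Chil3, a chitinase-like lectin, is abundant in alveolar macrophages.

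Members made up 2.83% (2.09 to 3.75) of the pool, with 47 of 1659 barcodes. They made up 0.478% (0.219 to 0.905) within the library labelled IL-18R- CD103- GFP-, with 9 of 1883, and 0.432% (0.174 to 0.887) within the IL-18R- ST2+ library, with 7 of 1622. The interval of the pool did not overlap the others, and a difference between the sorts and a difference between the 3 preparations cannot be told apart. The neutrophil class had 22, 4 and 2 cells in this order and the Lyz2 class 25, 5 and 5. The neutrophil class was thus 46.8% (32.1 to 61.9), 44.4% (13.7 to 78.8) and 28.6% (3.67 to 71.0) of the members, and these intervals overlapped.

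The threshold lay in a gap of the data. The lowest member had 24 UMIs of the 4 rule genes in the pool, 28 within the library labelled IL-18R- CD103- GFP-, then 252 within the IL-18R- ST2+ library, whereas the highest barcode under the threshold had 4, 2 and 1. Any rule UMI at all was found in 1.74%, 0.427% and 0.31% of the other barcodes, which had median depths of 4929, 4772 and 4567 UMIs. The rule set aside 1 pool barcode for its 3 endothelial UMIs, although it held 677 Lyz2 UMIs, and this barcode had 5122 UMIs of type 2 epithelium genes and 0 of the alveolar macrophage list. It also set aside 1 barcode within the library labelled IL-18R- CD103- GFP- with 40 Lyz2 UMIs and 1 CD3 UMI. The classes were well apart too: the smaller side of the rule reached at most 23.9% of the larger in the neutrophil class and at most 3.7% in the Lyz2 class.

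**Figure D1:**
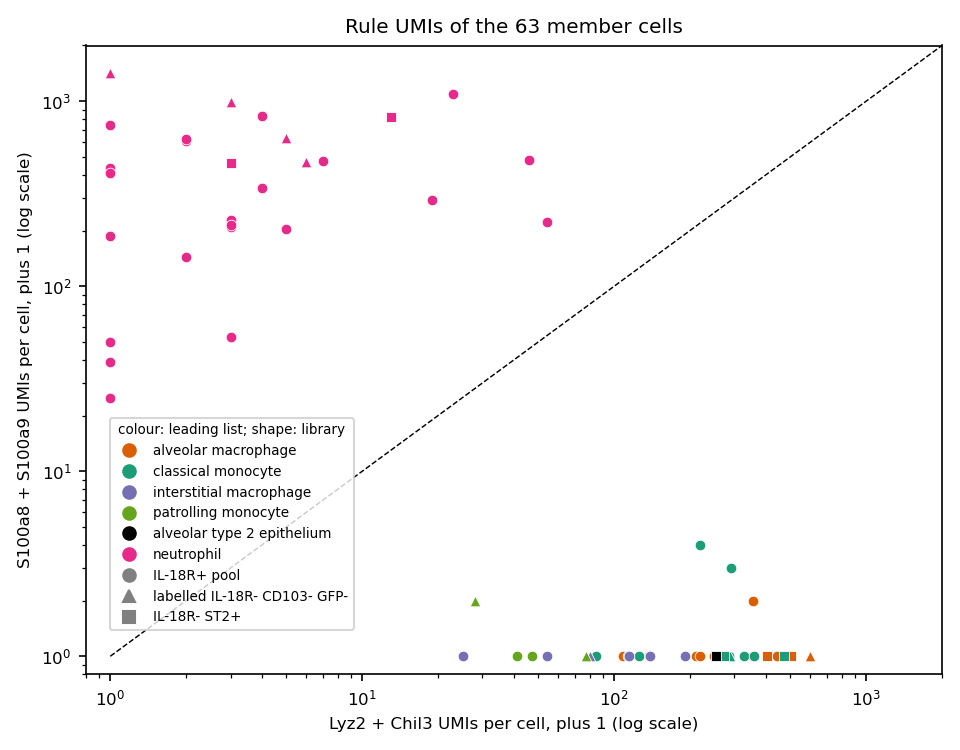
Each of the 63 member cells is placed by its Lyz2 plus Chil3 UMIs (x) and its S100a8 plus S100a9 UMIs (y), both with 1 added and on log scales; the colour is the gene list with most UMIs, the shape is the library and the dashed line marks equal sums. The 28 cells above the line and the 35 below it are far from it, and 31 of the 35 have 0 S100a8 and S100a9 UMIs.

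All 4 rule genes can be placed on the mouse genome (build GRCm38). S100a8 lies on chromosome 3 at 90668978 to 90670035 on the plus strand, and S100a9 is its neighbour at 90692632 to 90695721 on the minus strand. Chil3 lies farther along chromosome 3 at 106147554 to 106167564 on the minus strand. Lyz2 lies on chromosome 10 at 117277331 to 117282321 on the minus strand. The 150 bases ahead of each start site are shown because these genes cut the cells into classes. Members held 89.5% of all Lyz2 UMIs, with 677 of the 731 others in the pool barcode set aside above. They held 99.95% of Chil3, 99.65% of S100a8 and 99.78% of S100a9 UMIs. They are RefSeq promoter sequences (GRCm38.p6, 5′ to 3′ on the gene's strand), at chr3:90668828-90668977 (+), chr3:90695722-90695871 (-), chr10:117282322-117282471 (-) and chr3:106167565-106167714 (-). Capitals mark a match, on the opposite strand, to the core letters GAGGAAG of PU.1, a factor that myeloid cells need.
S100a8: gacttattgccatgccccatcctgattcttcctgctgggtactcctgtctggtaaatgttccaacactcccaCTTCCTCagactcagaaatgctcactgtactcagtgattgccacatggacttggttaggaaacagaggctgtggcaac
S100a9: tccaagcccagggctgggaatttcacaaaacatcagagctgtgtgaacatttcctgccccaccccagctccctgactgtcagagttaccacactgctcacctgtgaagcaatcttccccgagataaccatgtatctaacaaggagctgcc
Lyz2: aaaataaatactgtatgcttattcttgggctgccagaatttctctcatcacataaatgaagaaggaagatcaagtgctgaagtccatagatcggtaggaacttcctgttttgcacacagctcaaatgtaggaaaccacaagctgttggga
Chil3: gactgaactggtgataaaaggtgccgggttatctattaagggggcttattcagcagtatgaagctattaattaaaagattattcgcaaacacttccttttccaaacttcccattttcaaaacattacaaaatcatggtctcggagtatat

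On either strand, GAGGAAG was in 1052 of 15757 promoters of this length (6.68%), and TTGCNNAA, core letters of the C/EBP factors, was in 830 (5.27%). In the neutrophil list, 1 of 16 promoters held the first and 2 of 16 the second. In the alveolar macrophage list, these counts were 4 of 12 and 3 of 12. A match describes letters in this window and is not a binding site.

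Several facts of the libraries bear on the members. Il18r1 reached 591 UMIs per 1000000 UMIs of the summed cells (UPM) within the library labelled IL-18R- CD103- GFP-, near the 663 UPM of the pool and against its label, and 16.1 UPM within the IL-18R- ST2+ library. Gfi1b had 0 UMIs in all 3. The library labelled IL-18R- CD103- GFP- shared 1 barcode with the pool, which was no member, and no other barcode was shared. Members held 3.35%, 0.638% and 1.06% of all UMIs in the order pool, labelled IL-18R- CD103- GFP-, then IL-18R- ST2+. Scrublet called 26 of 5164 barcodes (0.503%) as doublets and 0 of the 63 members, and no member was removed on this ground.

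The members carried RNA of 1 of the 3 shared sort markers. Ptprc, which encodes CD45, had a UMI in 26 of 28 cells of the neutrophil class and 33 of 35 of the Lyz2 class. Thy1, which encodes CD90, and Il7r had 0 UMIs in all 63 members, which allows a share of up to 4.76% of cells with a UMI (3 of 63). In the 5101 other barcodes, Thy1 was in 71.0% (69.7 to 72.2), Il7r in 96.0% (95.5 to 96.6) and Ptprc in 90.7% (89.8 to 91.4). The contrast remained when each cell was thinned to 1000 UMIs: Il7r was then in 72.7% and Thy1 in 27.4% of 5097 other cells and in 0 of 63 members, while Ptprc was in 47.4% and 69.8%. Il1rl1 and Itgae, which encode ST2 and CD103, also had 0 UMIs in members. Il18r1 had 5 UMIs in 4 member cells. Surface protein was not measured in these files.

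**Figure D2:**
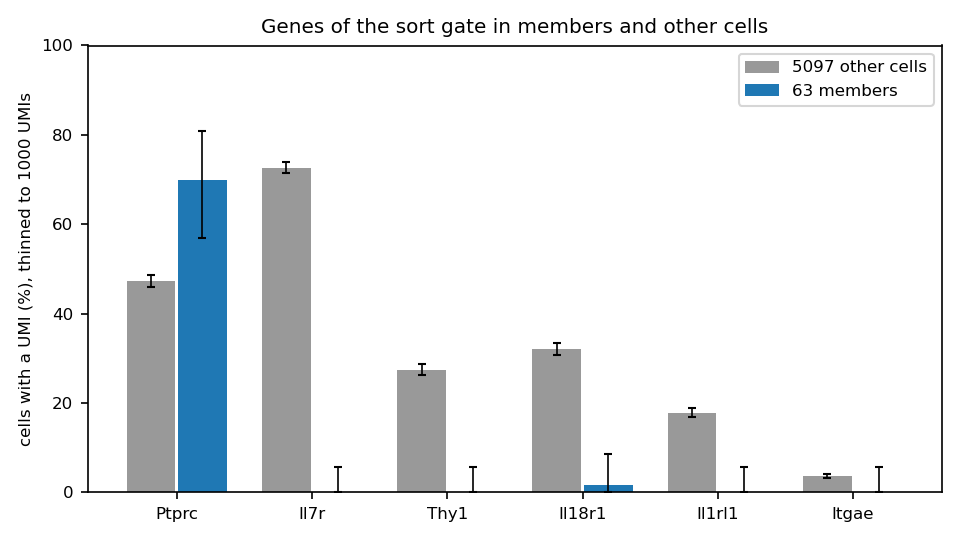
Bars give the share of cells with at least 1 UMI of 6 genes that encode proteins of the sort gates, after thinning every cell to 1000 UMIs, for 5097 other cells (grey) and 63 members (blue); error bars are exact 95% binomial intervals. Ptprc is found in both groups, whereas Il7r and Thy1 bars are present only for the other cells.

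The neutrophil class carried the receptors and granule products of neutrophils in all 3 libraries. S100a8 and S100a9, which chose the cells, held 53161 and 68076 UPM in the pool, 102745 and 152552 within the library labelled IL-18R- CD103- GFP-, then 100444 and 126531 within the IL-18R- ST2+ library. The 2 supplied markers outside the rule separated the same way. Retnlg, a resistin-like secreted protein, had 4716 UPM (4203 to 5274), 5388 (4231 to 6765) and 5501 (3738 to 7809) in the neutrophil class in this order, with 0 UMIs in the Lyz2 class of each library. Ear2, an RNase of the eosinophil-associated family that shares reads with close copies and is therefore uncertain, had 1009, 1786 and 1075 UPM in the Lyz2 class. In the neutrophil class Ear2 had 3 UMIs, all in 1 pool cell.

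Growth factor and chemokine receptors gave the same order in each library. Csf3r, the G-CSF receptor, had 1597 UPM (1305 to 1936), 1820 (1178 to 2687) and 1242 (499 to 2559) in the neutrophil class, with a UMI in all 28 cells, against 97.5, 0 and 12.6 UPM in the Lyz2 class. Cxcr2, the receptor for neutrophil-attracting chemokines, had 538, 1675 and 1242 UPM against 0, 0 and 12.6. Il1r2, a decoy receptor for interleukin 1, had 2181, 2694 and 5679 UPM against 21.2, 41.5 and 12.6. None of these 3 receptors had overlapping intervals between the classes in any library. Hdc, which makes histamine, had 1413, 1966 and 2484 UPM and a UMI in all 28 cells. Mmp9, a gelatinase stored in granules, had 1152, 1820 and 1242 UPM, with 0 UMIs in the Lyz2 class of every library. The granule genes of young neutrophils, such as Mpo, Elane and Camp, included no gene with enough UMIs to be measured in the pool comparison. Their sum over the list was 17 UMIs in 12 of the 28 cells, against 14 UMIs in 6 of the 35 cells of the Lyz2 class.

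The class also held high levels of Il1b and Cxcl2, the genes of interleukin 1 beta and of a chemokine that attracts neutrophils. Il1b had 10982 UPM (10192 to 11818) in the pool, 10413 (8776 to 12266) within the library labelled IL-18R- CD103- GFP-, then 11180 (8591 to 14304) within the IL-18R- ST2+ library, so its intervals overlapped across libraries. Il1b in the Lyz2 class had 848, 893 and 316 UPM. Cxcl2 had 7972, 5024 and 8518 UPM in the neutrophil class and 1165, 3094 and 379 in the Lyz2 class, where 1 cell held 57.8% of the pool UMIs. Ptgs2, the inducible prostaglandin synthase, had 737 UPM (544 to 977) in the pool and 2549 (1775 to 3544) within the library labelled IL-18R- CD103- GFP-, with intervals apart. It had 710 (193 to 1817) within the IL-18R- ST2+ library, from 1 of 2 cells.

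Cells of the neutrophil class differed in how much of their RNA came from the rule genes, mostly S100a8 and S100a9. The 4 rule genes took from 1.63% to 33.2% of the UMIs of a cell, with a median of 13.9%. By library the medians were 9.54% in the pool, 23.5% within the library labelled IL-18R- CD103- GFP-, then 23.1% within the IL-18R- ST2+ library. Leaving aside 3 deep cells described below, 25 cells could be ordered by this share, and Lcn2, an iron-binding granule protein, followed that order most closely (Spearman rho 0.70), then Wfdc21 (0.54) and Mxd1 (0.52). Csf3r ran the other way (rho -0.44), and Il1b (0.03) and Hdc (-0.03) showed no order. These coefficients describe 25 cells of 3 libraries that share depth and scaling, ordered by a value that the rule used. Within the 19 pool cells alone, a setting added after the values were seen, rho was 0.74 for Mxd1, 0.63 for Lcn2 (a UMI in 8 cells), 0.37 for Wfdc21, -0.45 for Csf3r, 0.10 for Il1b and -0.17 for Hdc, so the order of the first 3 differed.

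The Lyz2 class was a mixture. Each cell was given the type list, of 6, that held most of its UMIs, a choice made after the values were seen. The alveolar macrophage list led in 13 cells, the classical monocyte list in 11, the interstitial macrophage list in 6 and the patrolling monocyte list in 4. In 1 cell from the IL-18R- ST2+ library type 2 epithelium genes led. In the pool these counts were 10, 8, 5, 2 and 0. They were 1, 1, 1, 2 and 0 within the library labelled IL-18R- CD103- GFP-, then 2, 2, 0, 0 and 1 within the IL-18R- ST2+ library. By the leading list alone, the label macrophage would therefore cover 19 of the 35 cells. Of these, the 6 led by the interstitial macrophage list mostly lacked its defining complement genes, as given below. Some leads were narrow. For example, 1 pool cell had 47 UMIs of the interstitial macrophage list and 38 of the patrolling monocyte list. Another pool cell had 44 UMIs of the patrolling monocyte list and 39 of the interstitial macrophage list.

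The cells led by the alveolar macrophage list held genes of lipid uptake and export along with surface markers of the type. Lpl, which splits triglyceride, had 3610 UPM (3341 to 3894) and a UMI in 13 of 13 cells, against 38.8 UPM (10.6 to 99.3) in the 11 cells led by the classical monocyte list. Abcg1, which exports cholesterol, had 1821 UPM (1632 to 2026) in 13 of 13 cells against 38.8. Mrc1, the mannose receptor, had 1016 UPM (876 to 1172) and Plet1, a surface protein, had 1232 (1077 to 1403), each in 13 of 13 cells. Siglecf, a sialic acid receptor used to sort these cells, had 97.3 UPM (57.7 to 154) in 9 of 13. Bhlhe41, a transcription factor of this cell type, had 178 UPM in 12 of 13. Lpl, Mrc1, Plet1 and Siglecf are on the list that chose these cells, so their levels are no support for it, whereas Abcg1 and Bhlhe41 are not.

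The 11 cells led by the classical monocyte list held Plac8 at 5099 UPM (4672 to 5554) and Ccr2, the receptor that draws monocytes into tissue, at 960 (780 to 1168), each in 11 of 11 cells. Ly6c2, which marks classical monocytes, had 872 UPM (702 to 1072) in 10 of 11. These genes, Apoe, Nr4a1, Ace and Treml4 are on the lists that chose their cells, so their levels are no support for the names. In the 6 cells led by the interstitial macrophage list, Apoe, a lipid carrier, had 7929 UPM (6999 to 8947) in 6 of 6. C1qa, a complement gene that defines such macrophages, had a UMI in 1 of these 6 cells and C1qb in 2, with 94.3% of its UMIs in 1 cell. The defining genes were thus at 0 in most cells of that subset. The 4 cells led by the patrolling monocyte list held Nr4a1, the factor patrolling monocytes depend on, at 1864 UPM (1365 to 2487). They also held Ace and Treml4 at 648 UPM each, in 4 of 4 cells. The remaining cell had 4285 of its 17133 UMIs in type 2 epithelium genes, with 3399 of surfactant gene Sftpc and 521 of Sftpa1. It had 252 UMIs of Lyz2 and 0 of Chil3. This cell stayed in the Lyz2 class of the IL-18R- ST2+ library, so its UMIs are part of the 79070 that scaled the UPM values there.

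**Figure D3:**
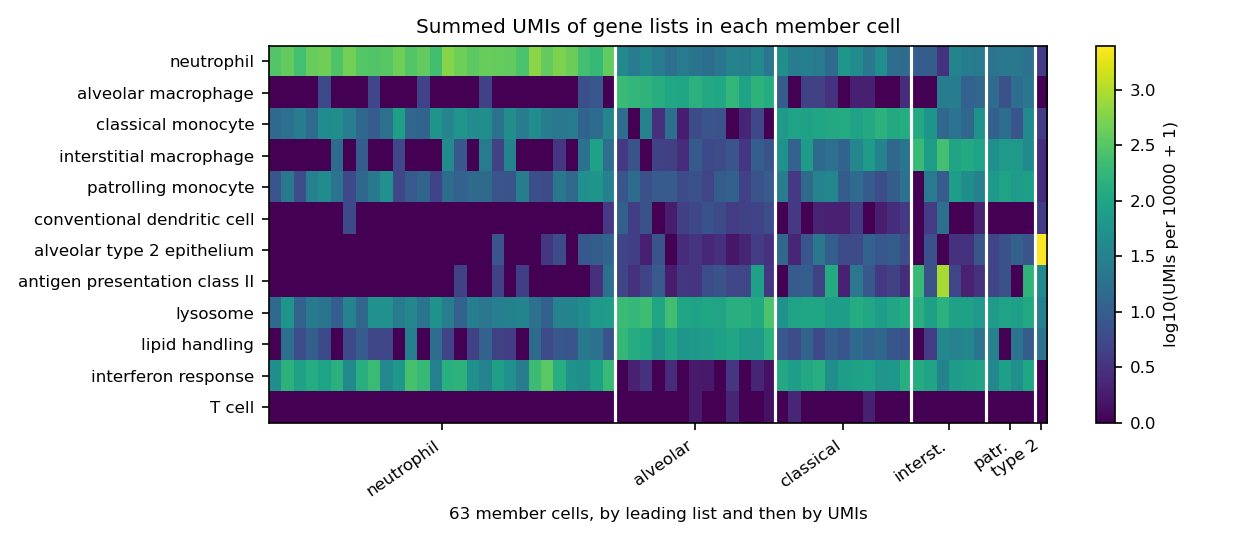
Columns are the 63 member cells grouped by leading list and ordered by UMIs within each group, rows are 12 gene lists, and the colour is log10 of summed UMIs per 10000 plus 1. The neutrophil list is brightest in the 28 neutrophil class cells, and the lipid handling list in the 13 cells led by the alveolar macrophage list. Lysosome list values of those 13 cells overlap with those of other Lyz2 class cells. The T cell list is near 0 in all columns.

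The size of the cells followed these lists. Neutrophil class cells had 1472 to 7612 UMIs with a median of 2650, and 739 to 2372 genes with a median of 893. The 13 cells led by the alveolar macrophage list had 7133 to 24510 UMIs with a median of 13530, and a median of 3752 genes. With every cell thinned to 1000 UMIs, the median was 481 genes (range over cells 371 to 601) in the neutrophil class, 655 (range over cells 629 to 695) in the cells led by the alveolar macrophage list and 603 (range over cells 556 to 637) in those led by the classical monocyte list. The neutrophil class had 0.238% mitochondrial UMIs at the median (range over cells 0 to 3.59) and the Lyz2 class 2.35% (range over cells 0.15 to 4.58). Depth and mitochondrial share thus moved with class, and their part in the gene differences below was not tested.

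**Figure D4:**
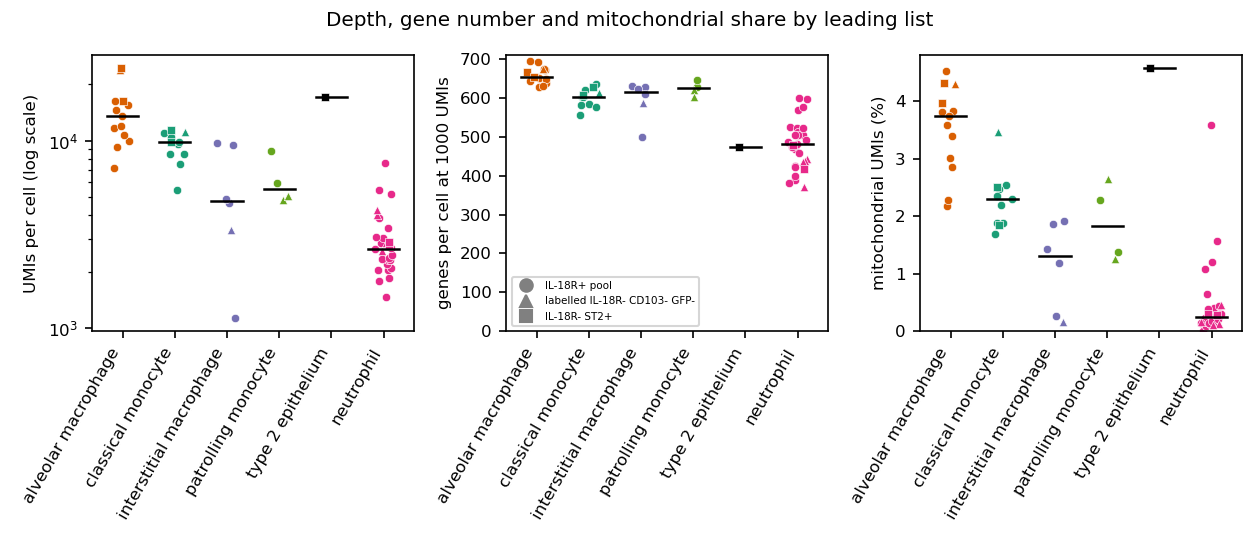
Panels give UMIs per cell (log scale), genes per cell after thinning to 1000 UMIs, and the mitochondrial share in percent for each member by its leading list; points are cells, shapes are libraries and bars are medians. The medians of 2650 UMIs, 481 genes and 0.238% place the neutrophil class lowest of the groups with over 1 cell on the 3 scales.

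The 2 classes were set against each other within the pool, where both had enough cells: 22 cells with 65104 UMIs and 25 cells with 235970. A gene was measured with at least 20 UMIs over both classes. It was called by size at a ratio of at least 4, with sums under 3 UMIs raised to 3 and at least 3 cells of the higher class with a UMI, and the rule genes were left out. A fold given as "at least" sets a class with 0 UMIs to 3 UMIs and does not include the counting error of the other class. Other folds use the sums as counted, also where a sum is under 3 UMIs, so the 2 kinds cannot be ranked together. Of 2407 measured genes, 131 were higher in the neutrophil class (5.44%) and 191 in the Lyz2 class (7.94%), 13.4% in all, and the median log2 ratio was -0.67. Because the classes were cut from the same cells, these counts describe them and test nothing. The split depended on the scaling. With median-of-ratios scaling, a shift of 0.48 on the log2 scale, 90 and 408 genes were called and the neutrophil side was 18.1% of calls, against 40.7% as given. With totals taken without the 4 rule genes, 157 and 147 were called, and it was 51.6%. A gene with 0 UMIs in the neutrophil class could be called only if the Lyz2 class reached 184 UPM, and one with 0 in the Lyz2 class only if the neutrophil class reached 307 UPM. With median-of-ratios scaling Ccr1, Il1rn, Junb, Egr1, Cebpd and Hp no longer reached a ratio of 4 (log2 ratios of 1.62 to 1.99).

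Of the 20 measured genes of the neutrophil list, 16 were higher in the neutrophil class, 0 in the Lyz2 class and 4 in neither, with a median log2 ratio of 4.50. Retnlg was at least 371-fold higher, Hdc at least 111-fold, Acod1, which makes itaconate, at least 99.1-fold and Mmp9 at least 90.6-fold. G0s2, an inhibitor of fat breakdown, was 62.6-fold higher (39.4 to 105) and Csf3r 16.4-fold (10.4 to 27.0). Ly6g, the surface marker used to sort neutrophils, had 92.2 UPM in 3 cells against 0 and too few UMIs to be measured. Outside the lists the largest ratios included Lrg1, a secreted glycoprotein, at 225-fold (38.9 to 9017), Lmnb1, a nuclear lamin, at 43.1-fold (22.6 to 92.3) and Slc7a11, the cystine transporter, at 39.4-fold (19.1 to 94.2). Asprv1 was at least 37.5-fold higher, but 1 cell held 58.1% of its UMIs.

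Interferon response and immediate early genes had calls on the neutrophil side alone, while most of those measured were in neither. Of 7 measured interferon response genes, 3 were higher in the neutrophil class and 4 in neither (median log2 ratio 1.48). Ifitm1, a membrane restriction factor, was 620-fold higher (110 to 24622), Isg15, a ubiquitin-like modifier, 26.2-fold (14.6 to 51.0) and Ifitm2 5.69-fold (4.64 to 7.003). The Ifitm2 UMIs of the Lyz2 class were all in cells not led by the alveolar macrophage list, so its ratio averages over cells without it. Ifitm1 reached 12 of 22 cells and 1 cell held 41.5% of its UMIs. With sums raised to 3 UMIs, the log2 ratio of Ifitm1 was 7.691, against 8.535 for Retnlg. Of 13 immediate early and heat shock genes, 4 were higher in the neutrophil class and 9 in neither (median 1.48). Btg2 was 8.94-fold higher (7.21 to 11.2), Ier3 6.54-fold, Egr1 4.91-fold and Junb 4.28-fold (3.70 to 4.97), and with median-of-ratios scaling Egr1 and Junb missed a ratio of 4 (log2 ratios of 1.82 and 1.62). Digestion of tissue is known to induce such genes, and its part here was not tested.

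Secreted signals and their receptors split by member. Of 5 measured cytokines, Il1b was 12.96-fold higher in the neutrophil class (11.1 to 15.2) and Il1rn, the natural blocker of the interleukin 1 receptor, 4.98-fold (2.50 to 10.2). Il18 was at least 6.25-fold higher in the Lyz2 class, and 2 cytokines were in neither. Of 5 chemokines, Cxcl2 was 6.84-fold higher in the neutrophil class (5.90 to 7.95), Ccl9 was 6.76-fold higher in the Lyz2 class (1.77 to 57.4), and Ccl2, Ccl3 and Ccl6 were in neither. Of 6 chemokine receptors, Cxcr2, Ccrl2 (6.43-fold, 4.31 to 9.73) and Ccr1 (4.80-fold, 3.18 to 7.31) were higher in the neutrophil class. Ccr2 (11.04-fold, 2.96 to 92.7) and Cx3cr1 (6.07-fold, 1.99 to 30.2), the receptors that mark monocyte subsets, were higher in the Lyz2 class. Of 4 receptors for colony stimulating factors only Csf3r was called, and Csf1r had 138 UPM in the neutrophil class against 331. Of its 9 UMIs there, 7 were in 3 deep cells described below, and the other 19 cells had 42.7 UPM (5.17 to 154).

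The Lyz2 class led in alveolar macrophage, lipid, lysosome and antigen presentation genes. Of 14 measured alveolar macrophage genes, 12 were higher in it and 2 in neither (median log2 ratio -2.74), among them Lpl at least 40.0-fold, Plet1 at least 13.2-fold and Mrc1 at least 11.1-fold. Of 8 lipid handling genes, 5 were higher in it (median -2.35), with Abcg1 11.3-fold (4.77 to 35.2). Of 15 lysosome genes, 5 were higher in it and 10 in neither (median -1.80), with the protease Ctss 5.54-fold (3.71 to 8.64) and the cholesterol carrier Npc2 6.66-fold (3.16 to 16.8). Of 6 class II genes, 5 were higher in it (median -3.33), with the invariant chain gene Cd74 12.2-fold (6.11 to 28.4). In the Lyz2 class 1 cell held 51.6% of Cd74, 54.8% of H2-Aa and 60.6% of H2-Ab1, and H2-Aa had a UMI in 5 of 25 cells. With alveolar-led cells alone as the Lyz2 class, a subset chosen after the values were seen, the direction of Cd74 turned (log2 ratio 2.31), and H2-Aa, H2-Ab1 and H2-Eb1 had no value. The cell with most of these UMIs was led by the interstitial macrophage list and had 419 class II UMIs and 8 of the dendritic cell list, in 4661 UMIs.

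In 5 further lists most measured genes were in neither. Of 8 measured patrolling monocyte genes, 0 were called (median log2 ratio -0.03, and 0.13 with totals taken without the rule genes). Of the 152 UMIs of this list in the neutrophil class, 80 were in 3 deep cells described below, and without them the median was -0.64. Of 6 genes of the NADPH oxidase, which makes superoxide, only Cybb was called, 4.48-fold higher in the Lyz2 class (2.86 to 7.44), and Rac2 had a ratio of 3.12 to the neutrophil side. Of 14 uptake and pattern receptors, Cd14, the co-receptor for endotoxin, was 6.45-fold higher in the neutrophil class (5.02 to 8.33). The receptors Mrc1, Cd36, Clec4n and Axl were higher in the Lyz2 class, and 9 were in neither. Tyrobp, a signalling adaptor of myeloid receptors, had 6835 UPM against 2827 and Fcer1g, the Fc receptor gamma chain, 3348 against 2674. Of 12 transcription factors, Cebpd was higher in the neutrophil class (5.52-fold, 3.09 to 10.1), while Klf4 (8.14-fold, 3.10 to 30.4) and Bhlhe40 were among those higher in the Lyz2 class. Cebpb, of the same list, had 11105 UPM against 3483 and was in neither. Of 7 glycolysis genes only the glucose transporter Slc2a3 was called, 41.7-fold higher in the neutrophil class (10.3 to 365).

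Classical monocyte genes went both ways: Hp (4.31-fold, 3.28 to 5.68), which neutrophils also transcribe, was among those higher in the neutrophil class. Fn1, Plac8, Ccr2 and F13a1 were higher in the Lyz2 class, with Fn1 at 15.8-fold (5.32 to 77.5). With alveolar-led cells alone as the Lyz2 class, Plac8 turned to the neutrophil side (log2 ratio 2.48). Of 4 leukotriene and prostaglandin genes, Ptgs2 was 24.9-fold higher in the neutrophil class (11.2 to 65.1), Ltc4s, the leukotriene C4 synthase, was at least 8.001-fold higher in the Lyz2 class, and 2 were in neither. Of 5 survival genes, Bcl2a1a, which shares reads with its copies and is uncertain, was higher in the Lyz2 class, while Mcl1 had 3548 against 987 UPM and was in neither. Outside the lists, Mt1, a metallothionein, was at least 40.7-fold higher in the Lyz2 class, with 57.2% of its UMIs in 1 cell. Prdx1, a peroxide-removing enzyme found in 25 of 25 cells there, was 33.8-fold higher (9.26 to 281). With cells led by lists other than the alveolar one alone as the Lyz2 class, Il18, Bhlhe40 and Bcl2a1a turned to the neutrophil side (log2 ratios of 0.41, 0.15 and 0.41).

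**Figure D5:**
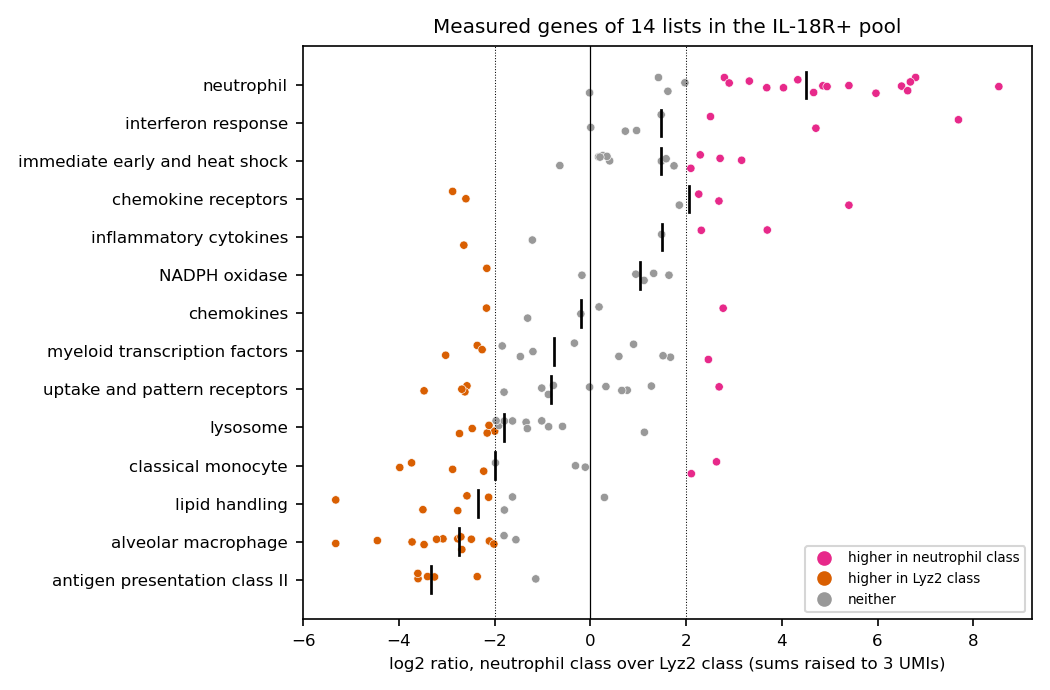
Each point is a measured gene of 1 of 14 lists, placed by its log2 ratio of neutrophil class over Lyz2 class in the pool with sums raised to 3 UMIs; pink and orange points are called higher in the neutrophil and Lyz2 class, grey points in neither, black bars are list medians and dotted lines mark a ratio of 4. The neutrophil list has its median at 4.50 and the class II list at -3.33, and chemokine receptors hold called genes on both sides.

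The alveolar-led and other cells of the Lyz2 class were compared within the pool as well, with 10 cells (120638 UMIs) against 15 (115332). Genes of the 6 type lists were left out here along with the rule genes. Of 1934 measured genes, 168 were higher in the alveolar-led cells (8.69%) and 111 in the others (5.74%). The groups were cut by those lists on the same cells, so these counts too describe them and test nothing. The 3 measured interferon response genes were all higher in the others. Ifitm3 had 0 UMIs in the 10 alveolar-led cells and 494 in the other 15, a UMI in 15 of 15, and was at least 172-fold higher. Ifitm2 was at least 54.4-fold higher, with 156 UMIs against 0, and Ifi27l2a 282-fold (50.3 to 11196), with 270 against 1. Of 6 class II genes, 4 were higher in the others, with Cd74 184-fold (50.4 to 1522). A few cells made this difference: single cells of the others held 419, 143 and 118 class II UMIs. Most of the others held 0 to 8, against 1 to 10 in the alveolar-led cells. Il1b was 7.67-fold higher in the others (4.99 to 12.3), and Itgam, the CD11b gene, had 46 UMIs in the others against 0, at least 16.04-fold.

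Alveolar-led cells were higher in the protease Ctsd, 24.0-fold (15.02 to 40.9), in Ccl6, 5.21-fold (4.04 to 6.81), and in Il18, 15.3-fold (5.69 to 57.9). Each had a UMI in 10 of 10 of these cells. Of 15 measured lysosome genes, 2 were higher in the alveolar-led cells and 13 in neither. Ltc4s had 87 UMIs in 10 of 10 alveolar-led cells against 0, at least 27.7-fold, and Alox5, the first enzyme of leukotriene synthesis, had 24 against 0, at least 7.65-fold. The transcription factors Bhlhe41 (25 UMIs against 0), Bhlhe40 (9.44-fold, 4.57 to 22.6) and Cebpa (27.7-fold, 4.597 to 1132) were higher in them. Klf2 (6.16-fold, 3.01 to 14.2), Irf5 and Cebpd were higher in the others. Wfdc21, of the neutrophil list, had 72 UMIs in 9 of the 10 alveolar-led cells and 0 in the others. Of the 10 measured genes of that list, 2 were higher in the alveolar-led cells, 5 in the others and 3 in neither. The NADPH oxidase subunit Ncf4 was 11.2-fold higher in the others (3.49 to 56.9), and 5 of the 6 measured genes of that oxidase were in neither.

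A group of 3 pool cells of the neutrophil class stood apart. They had 5219, 5462 and 7612 UMIs, above the 4267 of the deepest of the other 25. The rule genes took 5.04% to 6.94% of their UMIs. In the 25 others, from all 3 libraries, the median was 16.2% (range over cells 1.63 to 33.2), so this share overlapped. Retnlg (6 to 47 UMIs) and Csf3r (2 to 7) were in all 3 deep cells. Lyz2 had 18, 38 and 53 UMIs in them and 0 to 22 in the others. Cybb had 3 to 11 UMIs in each and 1 UMI in all 25 others together, and Ctss 3 to 13 against 7 in all. The patrolling monocyte genes Ace and Spn had UMIs in 3 of 3 and 0 in the 25 others, and Treml4 had UMIs in 3 of 3 and in 1 of 25. The mitochondrial share of the 3 cells was 1.08% to 3.59%, against a median of 0.215% in the others (range over cells 0 to 1.57). Scrublet called none of the 3, and whether each is 1 cell was not tested. Without them 147 and 207 genes were called in the class comparison, of which 123 and 121 were among the 131 and 191 given above. Without them Ccl9, Bhlhe40, F13a1 and Bcl2a1a were among the genes no longer called. Their log2 ratios went from -2.17, -2.26, -2.23 and -2.05 to -1.70, -1.79, -1.75 and -1.57, in equal steps. The smaller class total, 46811 against 65104 UMIs, gives this step by itself, so these lost calls describe the scaling and not the 3 cells. The log2 ratio of Cybb then moved from -2.17 to -4.43 and that of Ctss from -2.47 to -4.32.

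Against the 1612 other pool barcodes, the 47 members were higher in 775 of 11143 measured genes (6.96%) and lower in 431 (3.87%). With median-of-ratios scaling these counts were 658 and 576. All 15 measured uptake and pattern receptors, 4 of 4 colony stimulating factor receptors and 13 of 15 lysosome genes were higher in members. Outside the lists, the pore-forming protein gene Mpeg1 had 192 UMIs in members and 2 in all others, a 2774-fold difference (758 to 23069). Sirpa, an inhibitory receptor of phagocytes, had 173 and 7, a 714-fold difference (339 to 1803). On the other side were all 10 T cell list genes. Cd3e and Cd3d, set to 0 in members by the rule, are not on that list. Icos, a co-stimulatory receptor, had 7218 UMIs in others and 0 in members, Cxcr6 5965 and 0, and Il17a 4485 and 0. No member held UMIs of 2 or more T cell list genes.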

How the data were processed

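Per the labels' protocols, sorted lung cells (live, CD45+, CD90.2+, IL-7R+, no lineage marker) were made into 10x 3' libraries. Per the submitters' processing notes, Cell Ranger 6.0.1 and build mm10 were used; the sources used here do not give the annotation or the settings for calling cells. The deposited matrices hold UMI counts per gene and barcode, with no normalisation per the file headers, for 32285 genes. From these counts, members were found by the rule in the report, summed per class and scaled to the class total (UPM). Depths of the kept barcodes were 9000301, 9705864 and 7966923 UMIs in the order pool, labelled IL-18R- CD103- GFP-, then IL-18R- ST2+. Intervals are Poisson (levels), Clopper-Pearson (shares) and conditional binomial (ratios) at 95% and cover counting error only. "At least" folds use a floor of 3 UMIs per class. No test was run, since each group is 1 library. Members and the 37 gene lists were chosen with earlier results of these data known. Named genes are rule genes, supplied markers, list genes, and the 12 largest called ratios per direction outside the lists, without predicted, mitochondrial and ribosomal protein genes. Several genes named in the comparison of alveolar-led with other cells, and the subsets by leading list, were chosen after their values were seen. Ambient RNA was not removed. numpy 2.4.6, scipy 1.17.1, pandas 2.3.3 and scanpy 1.11.5 (Scrublet) were used. The calling steps were tested on simulated data. Alternatives covered thresholds, filters, scaling, weighting and left-out cells.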

Additional observations from a re-analysis of the deposited data

How the results depend on the processing

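No paired analysis was possible because each group is 1 library and the labels give no shared replicate numbers. Member counts moved by at most 2 in a library under the thresholds, filters and doublet settings run. Genes higher in the Lyz2 class numbered 408 with median-of-ratios scaling, 292 over the sum of the 3 libraries and 866 at a ratio of 2, against 191. Genes higher in the neutrophil class numbered 200 with at least 10 UMIs, 70 with at least 50 and 344 at a ratio of 2, against 131. The neutrophil side was then 51.1%, 29.4% and 28.4% of calls. Genes higher in members numbered 514 with at least 50 UMIs, against 775. Why these counts moved was not tested, other than the lower ratio and UMI minimum, which admit more genes by construction.

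Of 98 named genes under 19 settings, 5 values changed sign, all in subsets chosen after seeing the data. With alveolar-led cells alone as the Lyz2 class, the log2 ratio was 2.31 for Cd74 and 2.48 for Plac8. With cells led by other lists alone it was 0.41 for Bcl2a1a, 0.15 for Bhlhe40 and 0.41 for Il18. List medians that changed sign were leukotriene and prostaglandin synthesis at -0.26 (median-of-ratios scaling), patrolling monocyte at 0.13 (totals without rule genes), and chemokines at 0.23 (cells weighted equally), 0.12 (without the deepest cell of each class) and 0.17 (without the 3 deep neutrophil class cells, chosen after seeing the data). With alveolar-led cells alone they were interstitial macrophage 1.48, classical monocyte 3.09, patrolling monocyte 1.89, transcription factors 0.55 and leukotriene -0.12. With cells led by other lists they were chemokines 1.46, transcription factors 0.40, glycolysis 0.018 and survival 0.41. No value was given for 7 and 11 items in these subsets, where both classes were at or under the floor. The few cells outside the pool (9 and 7 members) limited what could be read there.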
